A study of Mus musculus with 12 samples.

Results

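The genes described here encode the neuronal nicotinic acetylcholine receptor subunits Chrna3, Chrna4, Chrna5, Chrna6, Chrna7, Chrnb2, Chrnb3 and Chrnb4. They were taken by symbol from the deposited expression table, which held 1 row for each of the 8 among 24490 genes. RNA was sequenced from dorsal root ganglia (DRG), the clusters of sensory neuron cell bodies beside the spinal cord, of adult male C57Bl/6 mice. The 12 samples formed 3 groups of 4: intact ganglia frozen whole (1 mouse per sample), acutely dissociated and unsorted cells (2 mice per sample), and MACS-sorted cells (8 mice per sample). For magnetic cell sorting (MACS), dissociated cells were incubated with an antibody cocktail against non-neuronal cells and passed over a magnetic column that held back the labelled cells, so the eluate was chosen by what it lacked. Each sample pooled its mice, so that differences between single animals could be seen in the intact group only, and p-values measure the spread between these samples.

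Nicotinic receptors are cation channels built from 5 subunits around a pore that opens when acetylcholine binds. Alpha and beta subunits combine in different mixtures, and the mixture sets which agonists open the channel, how much calcium it passes and how quickly it desensitizes, while Chrna7 subunits can form a channel by themselves. Sensory neurons of the DRG carry several of these mixtures, and Chrna6 in these neurons has been studied in relation to pain.

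The 8 genes lie on 5 chromosomes, given here for the build mm10. On chromosome 9, Chrna5 (54980880 to 55007779, plus strand), Chrna3 (55011343 to 55026559, minus strand) and Chrnb4 (55028156 to 55048544, minus strand) stand side by side, with 3563 bases between the first pair and 1596 bases between the second. On chromosome 8, Chrnb3 (27368711 to 27399730, plus strand) and Chrna6 (27403212 to 27413944, minus strand) are 3481 bases apart and meet at their 3′ ends. The other members are single: Chrna4 on chromosome 2 (181022311 to 181039177), Chrna7 on chromosome 7 (63098692 to 63212526) and Chrnb2 on chromosome 3 (89753448 to 89764632), all on the minus strand. In the deposited table the last 8 bases of Chrnb2 overlap the end of Adar, an RNA-editing enzyme gene on the opposite strand. In the GENCODE annotation of the same build, Chrnb2 extends further into the span of Adar, to 89746195. Chrnb4 there overlaps the annotated antisense RNA Gm47877, and Chrna7 overlaps Gm44741, an unclassified transcript model on its own strand. The library kit kept the strand, but the strand setting used in estimating expression is not given in the sources used here, so reads of these overlapping stretches may be divided between genes.

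Promoter sequences were available for 6 members, from RefSeq on GRCm38.p6, the assembly behind mm10. The regions before the starts of Chrna3, Chrna7 and Chrnb2 are shown without annotated exons. Among the members tested, Chrna3 and Chrna7 had the largest fall in sorted cells, and Chrnb2 the smallest difference from unsorted cells. Capitals mark GGGCGG, or CCGCCC where it lies on the other strand, the core letters of a GC box. All 3 are written 5′ to 3′ on the minus strand, the strand of the gene.
Chrna3, chr9:55026563-55026812: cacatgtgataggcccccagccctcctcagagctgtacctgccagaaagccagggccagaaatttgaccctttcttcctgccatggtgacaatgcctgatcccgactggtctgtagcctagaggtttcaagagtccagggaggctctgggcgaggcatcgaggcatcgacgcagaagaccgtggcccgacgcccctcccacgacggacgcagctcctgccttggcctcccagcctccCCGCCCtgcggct
Chrna7, chr7:63212570-63212776: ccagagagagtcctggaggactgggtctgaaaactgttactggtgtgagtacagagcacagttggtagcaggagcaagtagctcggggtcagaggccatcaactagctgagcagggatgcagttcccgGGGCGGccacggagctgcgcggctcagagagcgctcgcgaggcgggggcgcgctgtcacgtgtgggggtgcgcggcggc
Chrnb2, chr3:89764633-89764882: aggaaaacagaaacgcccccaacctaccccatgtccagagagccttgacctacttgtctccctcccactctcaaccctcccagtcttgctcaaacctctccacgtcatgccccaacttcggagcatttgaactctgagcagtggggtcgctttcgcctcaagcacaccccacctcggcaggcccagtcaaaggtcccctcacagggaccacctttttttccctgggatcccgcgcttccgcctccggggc
GGGCGG stood once before Chrna3 and once before Chrna7, and these 6 letters were not in the Chrnb2 window. The window of Chrnb4, which also fell, held 0, that of Chrna4, which rose, held 3, and those of Chrna5 held 0 and 4. These counts cover all 250 bases with annotated exons left in. The longest stretch without exons was 122 bases for Chrna4, with GGGCGG once, and 15 bases for Chrnb4. On either strand the letters occurred in 32.7% of 32851 RefSeq promoter windows of 250 bases. The GC content was 63.2% for Chrna3, 67.2% for Chrna7, 59.6% for Chrnb2, 61.2% for Chrnb4, 74.4% for Chrna4 and 40.0% and 65.2% for the 2 windows of Chrna5, against a median of 52.4% over all windows. TATAAA was found in none of the 7 windows of the 6 members and in 12.4% of all windows, and TGANTCA in none of the 7 and in 6.75% of all.

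Expression was given as FPKM, fragments per kilobase of transcript scaled to the mapped total, a scale per length on which different genes can be set side by side. The files give no read totals. The steps between the lowest values of a sample, with fragments of 200 bases assumed, gave estimates of 16700000 to 19800000 fragments per intact, 16000000 to 18900000 per unsorted and 13900000 to 17600000 per MACS-sorted sample. Markers of satellite glia summed to between 90.1 and 205 FPKM in MACS-sorted and between 2276 and 2857 FPKM in unsorted samples. Glul alone supplied between 82.3 and 111 FPKM of the sums in MACS-sorted samples. Red blood cell genes, by contrast, reached sums of 1678, 2532, 12538 and 15360 FPKM after sorting (replicates 1 to 4) and of 399.5 FPKM or less in unsorted samples. Skeletal muscle genes summed to 2410 FPKM in intact replicate 1 and did not exceed 53.7 FPKM in its group otherwise.

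In intact ganglia 3 subunits dominated. Chrna7 averaged 23.3 ± 4.62, Chrnb2 18.3 ± 2.66 and Chrna6 16.3 ± 1.35 FPKM (SD, n = 4), and the ranges of neighbours in this order overlapped. Chrna3 followed at 5.52 ± 1.11, Chrnb3 at 3.31 ± 0.35, Chrnb4 at 2.81 ± 0.56 and Chrna4 at 1.03 ± 0.087 FPKM (SD, n = 4). Of these, only Chrnb3 and Chrnb4 overlapped in their ranges, and Chrnb3 was the higher in 4 of 4 samples. Chrna5 came last, with no sample above 0.125 FPKM.

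In unsorted cells the first 4 genes stood in the same order. Chrna7, at 28.0 ± 3.01 FPKM, lay above Chrnb2 in 4 of 4 samples although their ranges overlapped, and Chrnb2 lay above Chrna6 and Chrna6 above Chrna3 without overlap. Chrnb4 and Chrnb3 could not be ordered, since their ranges overlapped and Chrnb4 was higher in 3 of 4 samples.

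In MACS-sorted samples the order changed. Chrna6 and Chrnb2 led with overlapping ranges and each was the higher in 2 of 4 samples. They were followed by Chrna7, Chrna4, Chrnb3, Chrna3 and Chrnb4, each of which overlapped the next in range, and by Chrna5, listed at 0 in 3 of 4 samples. Chrna7, the highest member before sorting, was thus no longer apart from Chrna4, which was above it in 2 of 4 sorted samples.

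**Figure D1:**
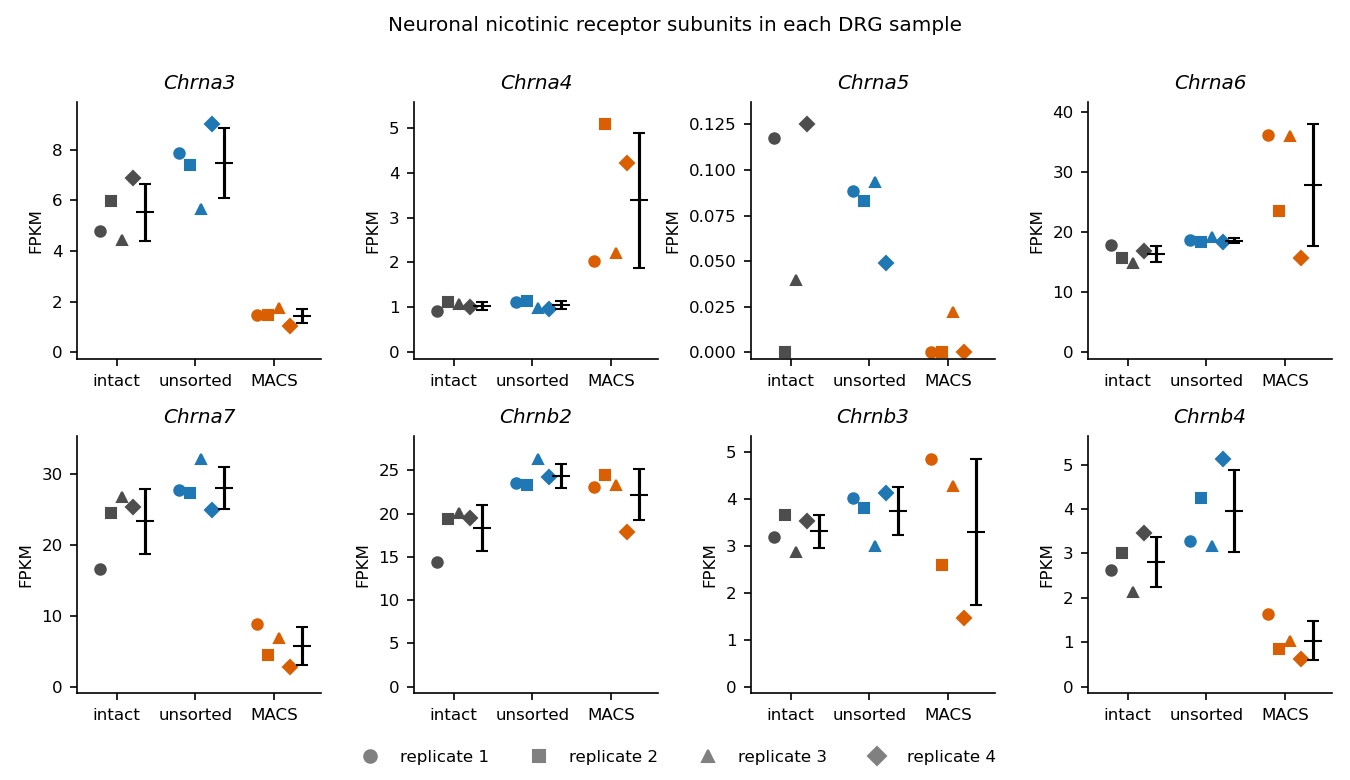
Expression of the 8 subunits in FPKM (y axes, a separate scale for each gene) in intact, unsorted and MACS-sorted DRG samples (x axes). Symbols are single samples and bars the mean ± SD of 4 samples, omitted for Chrna5, which has samples listed at 0. Chrna3, Chrna7 and Chrnb4 are lower and Chrna4 is higher in every MACS-sorted sample than in every sample of the other groups.

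The comparison of MACS-sorted with unsorted samples was the one by which the study set out to describe the transcriptome of nociceptors, the neurons that detect damaging stimuli. Chrna3, Chrna7 and Chrnb4 fell, Chrna4 rose, and the remaining 3 members tested, Chrna6, Chrnb2 and Chrnb3, did not pass the test. Differences were tested with limma on log2(FPKM + 0.1), a scale that understates the fold of low genes, and "passed" stands for an adjusted p-value under 0.05. Of the 8 members, 7 averaged 1 FPKM or more in the samples compared and were tested: 1 rose and 3 fell, where 18.8% of 12038 genes rose and 27.7% fell. The sorted and unsorted samples did not overlap for the same 4, 1 higher and 3 lower, where 18.4% of all genes lay wholly higher and 27.8% wholly lower. The median difference was -0.31 over the 7 members and -0.04 over all genes tested. In bulk samples, fewer cells of a type cannot be told apart from less RNA per cell.

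Among the alpha subunits that carry the principal face of the acetylcholine site, Chrna3 is the one that pairs with Chrnb4 in autonomic ganglia. It measured 7.87, 7.37, 5.64 and 8.99 FPKM in unsorted replicates 1 to 4. The sorted replicates held 1.48, 1.49, 1.75 and 1.06 FPKM. All sorted samples lay below all unsorted samples, and the mean was 5.18-fold lower. The difference was -2.30 in log2(FPKM + 0.1) (SE 0.18, adjusted p = 1.0e-05, limma with Benjamini-Hochberg adjustment).

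Chrna7, whose product forms the calcium-permeable receptor blocked by alpha-bungarotoxin, measured 27.7, 27.2, 32.1 and 24.9 FPKM in unsorted replicates. After sorting the values were 8.86, 4.51, 6.85 and 2.76 FPKM. The groups did not overlap, and the sorted samples were more spread than the unsorted ones. The mean was 4.87-fold lower, a difference of -2.38 in log2(FPKM + 0.1) (SE 0.30, adjusted p = 1.5e-04, limma with Benjamini-Hochberg adjustment).

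Chrna4, which with Chrnb2 makes the main high-affinity nicotine receptor of the brain, moved the other way. Unsorted replicates held 1.11, 1.14, 0.990 and 0.962 FPKM and MACS-sorted replicates 2.04, 5.07, 2.21 and 4.21 FPKM. Every sorted sample was above every unsorted one, with replicates 2 and 4 well above replicates 1 and 3, and the mean was 3.21-fold higher. The difference was 1.49 in log2(FPKM + 0.1) (SE 0.29, adjusted p = 0.0021, limma with Benjamini-Hochberg adjustment).

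Chrna6, a subunit of receptors on catecholamine neurons and retinal axons as well as on sensory neurons, was tight before sorting, at 18.7, 18.3, 19.1 and 18.4 FPKM. Sorted replicates gave 36.2, 23.5, 36.1 and 15.6 FPKM. Replicates 1, 2 and 3 were above all unsorted samples and replicate 4 was below them. The difference of 0.50 in log2(FPKM + 0.1) (SE 0.24, 95% interval -0.03 to 1.03) did not pass (adjusted p = 0.11, limma with Benjamini-Hochberg adjustment). Without MACS-sorted replicate 4 it was 0.75 with an adjusted p of 0.0023 by the same limma fit, and with MACS-sorted replicates 1 and 2 alone, a choice made after the red blood cell values were seen, 0.65 with an adjusted p of 0.010. Replicate 4 had the highest sums in its group not only of red blood cell genes but also of satellite glia (205 FPKM), Schwann cell (1198 FPKM), fibroblast (36.5 FPKM), endothelial (82.1 FPKM) and macrophage (3.27 FPKM) markers, and the lowest sum of nociceptor markers (3099 FPKM). The part of these cells in the Chrna6 values was not tested.

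Chrna5, an accessory alpha subunit that does not form an agonist site in the usual pairs, was at the limit of these libraries. It was listed at 0.0887, 0.0831, 0.0931 and 0.0488 FPKM in unsorted samples, which corresponds to an estimated 1.3 to 2.6 fragments. MACS-sorted replicates 1, 2 and 4 were listed at 0 and replicate 3 at 0.0223 FPKM. The gene was below the level needed for a test, and no fold is given.

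Of the beta subunits that complete the acetylcholine site, Chrnb4 fell and Chrnb2 did not pass. Chrnb4 measured 3.29, 4.25, 3.16 and 5.14 FPKM in unsorted and 1.64, 0.853, 1.02 and 0.613 FPKM in MACS-sorted replicates. The groups were apart, with a mean 3.84-fold lower after sorting and a difference of -1.89 in log2(FPKM + 0.1) (SE 0.28, adjusted p = 4.1e-04, limma with Benjamini-Hochberg adjustment). Chrnb2, the beta subunit that most alpha subunits can join, measured 23.6, 23.3, 26.4 and 24.2 FPKM in unsorted samples. In MACS-sorted samples it measured 23.1, 24.5, 23.3 and 17.9 FPKM, so that the ranges overlapped and replicate 4 was the lowest of all 8. The difference was -0.14 on the log2(FPKM + 0.1) scale (95% interval -0.37 to 0.09, adjusted p = 0.28, limma with Benjamini-Hochberg adjustment), the narrowest interval among the 7 members.

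Chrnb3, an accessory beta subunit found with Chrna6 in other tissues, measured 4.02, 3.80, 3.00 and 4.12 FPKM in unsorted replicates. Sorted replicates gave 4.86, 2.58, 4.27 and 1.45 FPKM, on both sides of the unsorted range. Replicates 1 and 3 were the high ones, as for Chrna6 next to it on the chromosome. The difference of -0.31 on the log2(FPKM + 0.1) scale had a 95% interval from -1.04 to 0.43 (adjusted p = 0.48, limma with Benjamini-Hochberg adjustment) and so left room for a change in either direction. Its sign turned, to 0.02, without MACS-sorted replicate 4.

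The study's own criteria for a call added a log2 ratio of group means beyond 0.5 and more than 5 FPKM on average in the higher of both groups. By these 3 criteria together, Chrna3 and Chrna7 were called lower, where 12.5% of all genes tested were, and no member was called higher, where 8.15% were. Chrna4 and Chrnb4 passed the test and missed the 5 FPKM limit, with group means of 3.38 and 3.96 FPKM in their higher groups.

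**Figure D2:**
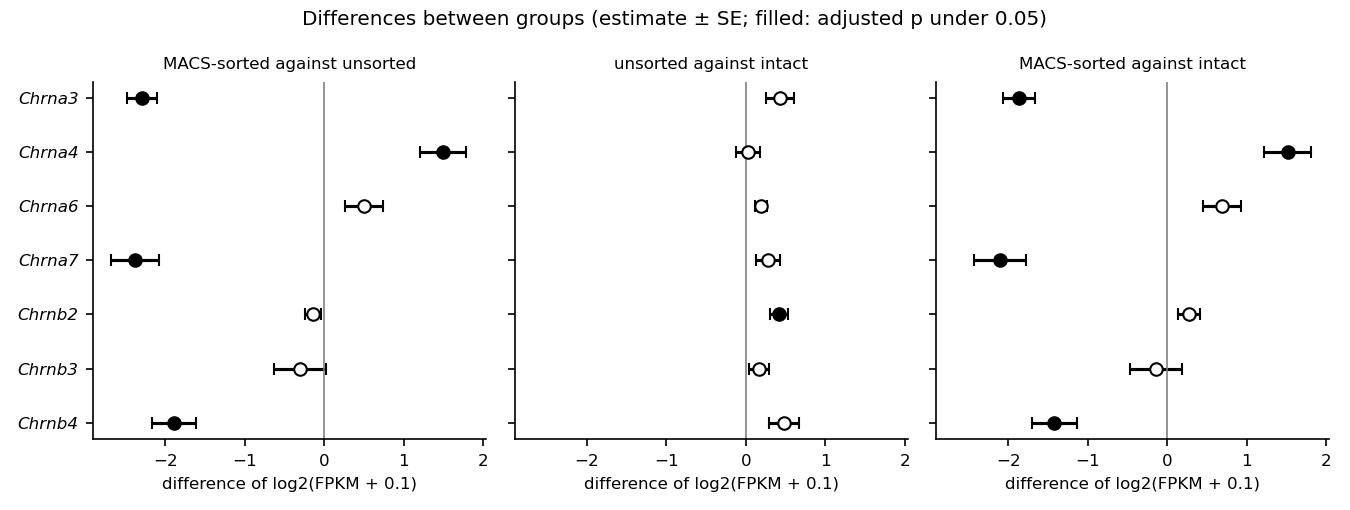
Differences between groups in log2(FPKM + 0.1) (x axes) for the 7 members tested (y axis), one panel for each pair of groups. Points are limma estimates, bars their standard errors, and filled points have an adjusted p under 0.05. Chrna3, Chrna7 and Chrnb4 are filled below 0 and Chrna4 above 0 in both panels with MACS-sorted samples, and in the unsorted against intact panel only Chrnb2 is filled.

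Dissociation without sorting was the contrast of unsorted with intact samples, and 1 of the 7 members tested passed in it. Estimates for all 7 members tested were above 0, from 0.02 for Chrna4 to 0.48 for Chrnb4, with a median of 0.28 against 0.01 over all genes. The sign for Chrna4 turned on leaving out some single samples. In the same contrast 7 of 10 markers of large-diameter neurons rose, with a median of 0.63, and 4 of 8 markers of all neurons, with a median of 0.31. Of 11 nociceptor markers 3 rose and 1 fell (median 0.01), all 7 endothelial markers rose (0.97), 6 of 7 fibroblast (-1.04) and 6 of 7 macrophage markers (-1.17) fell, and so did 5 of 6 skeletal muscle genes (-5.08). All 6 muscle genes, and Aif1 and Cx3cr1 among the macrophage markers, averaged under 1 FPKM in unsorted samples. They reached the limit for a test only through the intact samples, so the filter favoured their fall. The part of these cell types in the differences of the members was not tested. Chrnb2 passed the test and rose, from 14.4, 19.4, 20.1 and 19.5 FPKM in intact replicates. Its difference was 0.42 in log2(FPKM + 0.1) (SE 0.11, adjusted p = 0.029, limma with Benjamini-Hochberg adjustment), and all unsorted samples were above all intact ones. This 1 of 7 members stands beside 14.8% of 12392 genes that rose and 7.79% that fell. Chrnb2 and Chrna6 were the 2 of 7 whose unsorted samples all lay higher, as did those of 20.8% of all genes, and none of the 7 lay wholly lower, where 12% of all genes did. By the 3 criteria, explained above, no member was called, against 4.29% of genes called higher and 2.76% called lower. The Chrnb2 result by the test alone was lost, with adjusted p-values of 0.059 to 0.076 by the same limma fit, on leaving out any 1 of the 4 unsorted samples.

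Chrna6 was also higher in every unsorted sample than in the intact samples, which held 17.9, 15.6, 14.8 and 16.9 FPKM. The difference of 0.19 in log2(FPKM + 0.1) (SE 0.07) had an adjusted p of 0.091 by limma with Benjamini-Hochberg adjustment. For Chrna3 the intact values were 4.80, 5.96, 4.45 and 6.87 FPKM and the difference was 0.43 (95% interval 0.04 to 0.82, adjusted p = 0.10, limma). Both intervals, taken without adjustment, lay above 0, and neither gene passed over all genes tested.

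Intact replicate 1, the sample with the high sum of skeletal muscle genes, had the lowest Chrna7 and Chrnb2 of its group, at 16.5 and 14.4 FPKM. The other intact samples measured 24.5, 26.8 and 25.4 FPKM for Chrna7. Chrna6 was highest in the same replicate, so the sample was not low for every member. Without it, Chrna6 passed (0.24, adjusted p = 0.012, limma) beside Chrnb2. This replicate was also the highest of its group in Schwann cell (4508 FPKM), fibroblast (947 FPKM), macrophage (67.2 FPKM), red blood cell (737 FPKM) and nociceptor (3551 FPKM) marker sums, and the part of these in its values was not tested.

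MACS-sorted samples differed from intact ganglia in Chrna3, Chrna4, Chrna7 and Chrnb4 too. The sorted samples are shared by both comparisons, which are therefore not independent. Chrna4 rose by 1.52 in log2(FPKM + 0.1) (SE 0.30, adjusted p = 0.0034, limma) from intact values of 0.931, 1.13, 1.08 and 0.999 FPKM. Chrna3 fell by 1.87 (adjusted p = 9.8e-05), Chrna7 by 2.10 (adjusted p = 8.5e-04) and Chrnb4 by 1.42 (adjusted p = 0.0042), all from the same limma fit. With quantile normalization the Chrnb4 result against intact ganglia no longer passed (-0.73, adjusted p = 0.086, limma). Chrnb4 had measured 2.64, 3.00, 2.13 and 3.46 FPKM in intact ganglia. These 1 higher and 3 lower of 7 stand beside 14.1% higher and 20.6% lower of 12234 genes. The same 4 were the members without overlap between the groups, where 15.6% of all genes lay wholly higher and 21.9% wholly lower. Chrna3 and Chrna7 were called lower by the 3 criteria, as were 10.7% of genes, and no member was called higher, where 7.54% were.

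Chrna6 against intact ganglia was 1.71-fold higher in mean and close to the threshold, at 0.69 on the log2(FPKM + 0.1) scale (95% interval 0.14 to 1.24, adjusted p = 0.054, limma). Its call depended on the scaling, the samples and the model. By limma the adjusted p was 0.035 with median-ratio size factors, 0.041 with quantile normalization, 0.019 with all 12 samples fitted and 0.0025 without MACS-sorted replicate 4. Chrnb2 differed by 0.28 (adjusted p = 0.16) and Chrnb3 by -0.14 (adjusted p = 0.77) in the same limma fit.

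The make-up of the 8 subunits changed with sorting. Their summed FPKM lay between 60.4 and 76.8 in intact ganglia, between 85.5 and 90.5 in unsorted cells and between 43.6 and 78.2 after sorting. Chrna7 supplied 32.0 ± 2.76% of the sum in unsorted and 8.49 ± 2.21% in MACS-sorted samples (SD, n = 4). Chrna6 supplied 21.3 ± 0.23% and 41.9 ± 6.02%, and Chrnb2 27.9 ± 0.88% and 35.2 ± 5.77%. For each of the 3 the sorted range lay apart from the unsorted range. The shares of Chrna3 went from 8.59% to 2.25% and those of Chrna4 from 1.21% to 5.82%. Chrnb3 had shares between 3.33% and 6.22% in sorted and between 3.32% and 4.75% in unsorted samples, which overlapped.

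**Figure D3:**
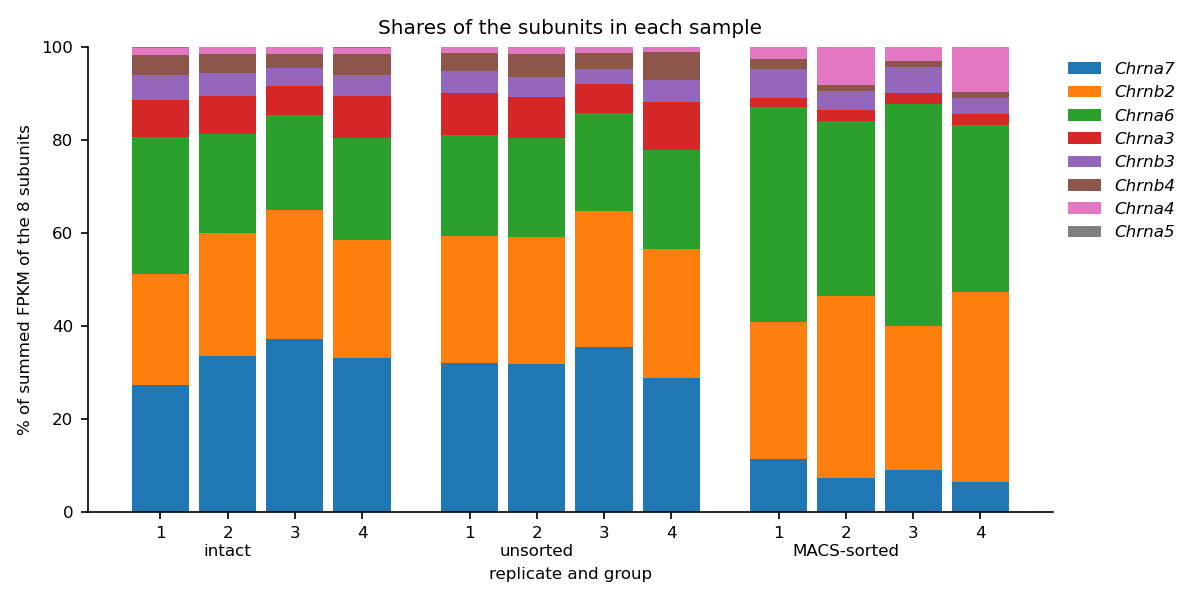
Share of each subunit in the summed FPKM of the 8 (y axis, percent) for each sample (x axis, replicates 1 to 4 of each group). Chrna7, at 28.7% to 35.5% of the sum in unsorted samples, is at 6.34% to 11.3% in MACS-sorted samples, where Chrna6 takes 35.8% to 47.8%.

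Ratios within a sample do not depend on a factor by which the whole sample is scaled, but quantile normalization can change them. The ratio of Chrna6 to Chrna3 was 2.46 to 3.72 in intact ganglia, 2.04 to 3.39 in unsorted cells and 14.8 to 24.5 after sorting. Chrna6 to Chrna7 went from 0.596 to 0.737 in unsorted to between 4.08 and 5.66 in sorted samples. Both show unequal change of the genes in the ratio, with sorted samples far outside the unsorted range. Chrnb2 to Chrnb4 shifted in the same way, from 4.71 to 8.33 in unsorted up to 14.1 to 29.2 in sorted samples.

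Neighbouring genes did not all keep their ratios. Chrna3 to Chrnb4, on chromosome 9, was 1.74 to 2.40 in unsorted samples and 1.72 to 1.75 in 3 of the sorted samples, while MACS-sorted replicate 1 was at 0.899. Chrna6 to Chrnb3, on chromosome 8, was 4.46 to 6.37 in unsorted and 7.44 to 10.8 in sorted samples, without overlap. Across the 12 samples the member most like Chrna3 was Chrnb4, with a root mean square difference of 0.32 in log2(FPKM + 0.1) after each gene was centred on its mean.

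By the same measure, over the 12276 other genes that averaged 1 FPKM or more, the nearest to each member were as follows. Negr1 (0.20), Lrrc4c (0.25) and Ust (0.25) came closest to Chrna3. Kcng4 (0.18), Htr3a (0.22) and Gng7 (0.24) came closest to Chrna7, among which Htr3a encodes the serotonin-gated channel of the same receptor superfamily and measured 57.6 FPKM in unsorted and 11.5 FPKM in sorted samples on average. Myo1a (0.17) and Nxph3 (0.22) were among the nearest to Chrna4, and Myo1a, a class I myosin gene, averaged 8.83 FPKM in unsorted and 23.7 FPKM in sorted samples. Ism1 (0.13), Agtr1a (0.14), the angiotensin receptor, and Cbln1 (0.15) were nearest to Chrna6. Chrnb2 varied least and lay within 0.058 of Mapk8ip2, Gak and Mfn2. Syt16 (0.20), Gpr149 (0.21) and Cadm2 (0.21) were nearest to Chrnb3, and C1qtnf1 (0.26), F2r (0.27) and Parva (0.29) to Chrnb4. All points share the 12 libraries, and the differences are descriptions without a test.

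Markers of neuron types moved in the same contrast as the members. Against unsorted samples, all 10 markers of large-diameter neurons were lower in MACS-sorted samples, with a median difference of -2.55 on the log2(FPKM + 0.1) scale. Their sum was 100.0 to 182 FPKM in sorted and 911 to 1117 FPKM in unsorted samples. Of 11 markers of small-diameter nociceptors, 9 rose and 1 fell, with a median of 0.74, and their sum was 3099 to 4300 FPKM in sorted and 2710 to 2832 FPKM in unsorted samples. Of 8 genes used in all neurons 4 rose and 2 fell, with a median of 0.32 and sums of 3156 to 4096 FPKM in sorted and 3562 to 3908 FPKM in unsorted samples. The differences of Chrna3 (-2.30), Chrna7 (-2.38) and Chrnb4 (-1.89) lay nearer 0 than the large-diameter median, and that of Chrna4 (1.49) was above the nociceptor median. Single large-diameter markers ranged from -4.77 to -0.57, which took in Chrna3, Chrna7 and Chrnb4. Nociceptor markers ranged from -0.85 to 1.03.

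Lists of glial and fibroblast markers had medians below the difference of any member, but the lists were wide. Single markers ranged from -7.02 to -0.58 for satellite glia, -5.14 to -0.92 for Schwann cells and -5.99 to -0.49 for fibroblasts. Each of these ranges took in the differences of Chrna3, Chrna7 and Chrnb4. All 8 satellite glia markers fell, with a median of -5.59, as did 6 of 7 Schwann cell markers (median -4.21) and 6 of 7 fibroblast markers (median -5.89). Of 8 macrophage markers only 3 could be tested. These 3 fell, but they reached the 1 FPKM limit only through their unsorted samples, so the filter favoured a fall. None of 7 endothelial markers passed. Kcnj10, a potassium channel that defines satellite glia, was at 20.5 FPKM in unsorted and 0.119 FPKM in sorted samples on average. All 7 red blood cell genes tested rose, with a median of 4.43. The part of each cell type in the differences of the members was not tested.

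Nicotinic subunits other than the 8 members were low in DRG. None of 8 further subunits (Chrna1, Chrna2, Chrna9, Chrna10, Chrnb1, Chrnd, Chrne and Chrng) reached the 1 FPKM needed for a test in any comparison. Chrna10, a subunit of the hair cell receptor, was measured at 0.584, 0.616, 0.562 and 0.723 FPKM in unsorted samples and was listed at 0 in 2 of the 4 MACS-sorted samples, with 0.0311 and 0.0490 FPKM in replicates 1 and 3. Its partner Chrna9 averaged at most 0.0143 FPKM. Chrnb1, a muscle-type subunit, averaged 0.538 FPKM in intact, 0.441 FPKM in unsorted and 0.507 FPKM in sorted samples.

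A list of 21 other cholinergic genes held receptor chaperones, prototoxins, muscarinic receptors and genes of acetylcholine supply and breakdown. Against unsorted samples 15 were tested: 9 fell, 2 rose and 4 did not pass, where 27.7% of all genes fell and 18.8% rose. Their median was -0.76 on the log2(FPKM + 0.1) scale, against -0.04 over all genes. Ric3, a chaperone needed for the assembly of Chrna7 receptors, fell by 0.74 (adjusted p = 7.0e-05, limma with Benjamini-Hochberg adjustment), from 19.8 ± 1.91 to 11.8 ± 0.45 FPKM. Tmem35, another chaperone for nicotinic receptors, averaged 29.7 FPKM before and 31.2 FPKM after sorting and did not pass.

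Lynx1, a membrane-anchored relative of snake toxins that damps nicotinic receptors, changed most on this list. It measured 122, 123, 147 and 119 FPKM in unsorted replicates. MACS-sorted replicates held 27.7, 19.0, 24.0 and 19.2 FPKM, all far below. The difference was -2.51 in log2(FPKM + 0.1) (SE 0.13, adjusted p = 8.0e-07, limma with Benjamini-Hochberg adjustment). Of the same family, Ly6h fell by 1.52, Lypd6b rose by 0.49 (adjusted p = 0.036, limma), and Ly6e, Lypd1 and Lypd6 did not pass.

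All 4 genes of acetylcholine breakdown fell. Ache, the acetylcholinesterase, averaged 50.4 ± 3.58 FPKM in unsorted and 18.4 ± 3.56 FPKM in sorted samples, a difference of -1.47 on the log2(FPKM + 0.1) scale (adjusted p = 2.2e-05, limma). Its anchors Colq and Prima1 fell by 1.80 and 1.91, and the related Bche by 1.48. Colq averaged 1.76 FPKM in unsorted and 0.453 FPKM in sorted samples and reached the limit for a test only through the former. Ache was also 1 of 2 genes of the whole cholinergic list, with Lynx1, that rose from intact to unsorted samples, by 0.77 (adjusted p = 0.0026, limma). These 2 were among 15 tested there and none fell, where 14.8% of all genes rose and 7.79% fell.

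Of 4 genes for acetylcholine synthesis, loading and choline uptake, only Slc44a1, a choline transporter found in many cell types, was high enough for a test. It averaged 57.9 FPKM in unsorted and 35.3 FPKM in sorted samples and fell by 0.74 on the log2(FPKM + 0.1) scale (adjusted p = 0.0023, limma). Slc5a7, the high-affinity choline transporter of cholinergic neurons, was above 0 in all 12 samples and averaged 0.765, 0.791 and 0.556 FPKM in intact, unsorted and sorted samples. Chat, which synthesizes acetylcholine, was listed at 0 in all unsorted and MACS-sorted samples and at no more than 0.0457 FPKM in intact samples. Slc18a3, the vesicular acetylcholine transporter, was listed at 0 in all MACS-sorted samples. Of the muscarinic receptors, the second class of acetylcholine receptor, Chrm2 fell by 2.06 and Chrm4 rose by 0.53 (adjusted p = 0.012, limma) on the same scale. Chrm2 averaged 4.23 FPKM in unsorted and 0.999 FPKM in sorted samples, and Chrm4 3.05 and 4.50 FPKM. Against intact ganglia, 1 of 14 genes tested on the list, Chrm4, rose and 8 fell, where 14.1% of all genes rose and 20.6% fell, with a median of -0.55 and the sorted samples in common with the first comparison.

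**Figure D4:**
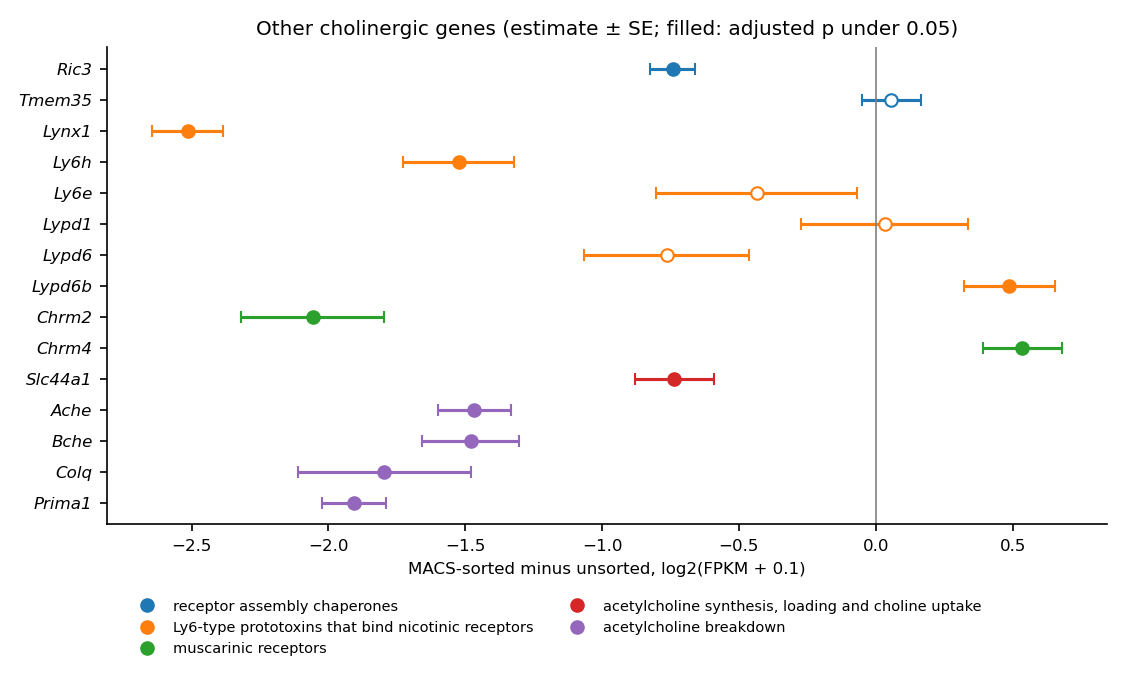
Differences of MACS-sorted minus unsorted samples in log2(FPKM + 0.1) (x axis) for the 15 cholinergic pathway genes tested (y axis). Points are limma estimates, bars standard errors, colours the role of the gene, and filled points have an adjusted p under 0.05. Lynx1 is the lowest at -2.51, all 4 breakdown genes are filled below 0, and only Lypd6b and Chrm4 are filled above 0.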

How the data were processed

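RNA was polyA-selected, made into strand-specific libraries and sequenced as 100-base reads. The authors aligned reads to mm10 with TopHat2, merged lanes with SAMtools and estimated expression with Cufflinks 2.1.1; the deposited table holds FPKM for every gene in each sample, and no counts were used here. Groups come from the sample titles, which pair no samples. The 8 samples of a comparison were fitted with limma 3.58.1 (R 4.3.3) after conversion to log2(FPKM + 0.1), with a trend of the variance on intensity, over all genes averaging 1 FPKM or more, two-sided, with Benjamini-Hochberg adjustment; the procedure was tested on simulated data. CuffDiff, named in the study's methods, needs the reads and was replaced by limma. FPKM are relative to the mapped total, so abundant RNA such as haemoglobin lowers all other values of a sample. The genes named are the 8 members, the genes of fixed pathway and marker lists, and for each member the 3 genes nearest in pattern, of which 1 is not reported here; members and lists were chosen with earlier results of these data known. Fitted fold changes are differences of group means on the log2 scale, and errors are SD over the replicates. Promoter windows were searched on both strands with Python 3.11.15 for the motifs given with them, and for CANNTG, which 66.2% of windows held. Alternatives covered the pseudocount, the filter, the trend, the samples fitted, 3 rescalings, a replicate block and leaving out each replicate; 1 was added after the data were seen.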

Additional observations from a re-analysis of the deposited data

Results flagged for a closer look

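Of 24 groups of 4 samples examined, 1 for each subunit and condition, 2 held a sample far from the other 3, and chance gives about 1 in 20. Chrnb2 in intact replicate 1 was at 14.4 FPKM, against 19.4 to 20.1 FPKM in the other intact samples, and this replicate also had the highest sums of skeletal muscle, Schwann cell, fibroblast, macrophage and red blood cell genes of its group. Chrna5 in MACS-sorted replicate 3 was at 0.0223 FPKM, which is less than 1 estimated fragment, while the other 3 were listed at 0. Beside 3 values of 0, any value above 0 is flagged, so the chance rate does not apply to Chrna5.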

How the results depend on the processing

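The fall of Chrna3 and Chrna7 and the rise of Chrna4 passed under every alternative in which they were tested, in both comparisons with MACS-sorted samples. Chrnb4 fell in both too, except against intact samples under quantile normalization (-0.73, adjusted p = 0.086, limma). A filter at 5 FPKM left Chrna3, Chrna4, Chrnb3 and Chrnb4 untested, so that in either comparison 0 members passed as higher and 1 as lower, and 1 was called lower. Against unsorted samples, leaving out single samples gave 1 to 2 members higher and 0 to 1 called higher; with MACS-sorted replicates 1 and 2 only these were 2 and 1. Chrna6 was the added member, passing only without MACS-sorted replicate 4 (0.75) and with replicates 1 and 2 alone (0.65). Against intact samples, 2 members passed as higher and 1 was called higher with all 12 samples fitted together, median-ratio size factors, quantile normalization, the red blood cell genes removed, or replicates 1 and 2 only. Leaving out single samples gave 1 to 3 higher and 0 to 1 called (3 and 1 without MACS-sorted replicate 4, where Chrnb2 also passed, adjusted p = 0.0496, limma), and Chrna6 passed in 7 of 19 alternatives. Between unsorted and intact samples, leaving out single samples gave 0 to 2 higher (0 without any 1 of the unsorted samples, 2 without intact replicate 1), and 0 passed with quantile normalization or with unsorted replicates 1 and 2, the closest pair, averaged.

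The sample titles state no pairing by replicate number. Deviations of same-numbered samples correlated between -0.14 and 0.07, which cannot show whether such samples shared a preparation. With the replicate number as a block, 3 members rose from intact to unsorted samples (Chrna3, adjusted p = 0.033, and Chrnb4, 0.027, by limma, beside Chrnb2). Against intact samples 2 members then passed as higher in MACS-sorted samples and 1 was called, and against unsorted samples the block gave 1 higher and 3 lower.

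Differences near 0 changed sign. Chrnb3 against unsorted samples was 0.0025 with quantile normalization and between -0.534 and 0.0245 on leaving out single samples, the highest without MACS-sorted replicate 4. Against intact samples Chrnb3 was 0.27 with quantile normalization, between -0.37 and 0.19 on leaving out single samples (the highest again without MACS-sorted replicate 4) and 0.10 with replicates 1 and 2 only. Chrna4 between unsorted and intact samples was -0.0085 with the pair averaged and between -0.0212 and 0.0619 on leaving out single samples, below 0 without unsorted replicate 1 or 2 or intact replicate 1. Quantile normalization also moved the median of all genes to 0.10 against unsorted and 0.13 against intact samples and raised the genes passing as higher from 2261 to 4039 and from 1728 to 3102. The cause was not tested. The number of genes passing between unsorted and intact samples was 1828 higher and 965 lower, and 1178 and 541 with all 12 samples fitted. Without a filter on low values the difference of Chrna5 was -0.76 against unsorted samples (adjusted p = 0.0052, limma), from an estimated 3 fragments or fewer per sample.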
